A study of Homo sapiens with 5 samples.

Results

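The transcription factor NRF2, encoded by NFE2L2, is held low by KEAP1, which passes it to a CUL3 ubiquitin ligase, and it accumulates when electrophiles or oxidants modify KEAP1. It then pairs with small MAF proteins on antioxidant response elements and raises genes for glutathione synthesis, the thioredoxin system, quinone reduction and haem breakdown. Haem breakdown releases iron, which the ferritin shell of FTH1 and FTL chains stores, and the ferritin chains are controlled by iron at translation as well as by NRF2 at transcription. The members described here are 10 such genes, picked by their GeneID from the 27189 listed for each library. They are PIR, NQO1, TXNRD1, TXN, PRDX1, GCLM, SRXN1, HMOX1, FTL and FTH1. The choice was made with earlier results of these data in view, PIR having been noticed for its low values with combined cytokines and at high density, so the member values are a description and carry no test. All 10 passed the filter of 1 TPM or more (transcripts per 1000000, corrected for transcript length) in 1 library or more, as did 21163 genes in all.

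RNA was sequenced from HT1080 cells, a human fibrosarcoma line, embedded in collagen I at 2 mg per ml and kept for 24 h. Matrices were seeded at 10 cells per cubic mm without cytokine (LD), with recombinant IL-6 alone (IL-6), with recombinant IL-8 alone (IL-8) or with both at a ratio of 5 to 2 (RM), or at 50 cells per cubic mm without cytokine (HD). Each of the 5 conditions is 1 library from 1 experiment, so no difference below has a replicate check. The question was how density and the interleukins change the transcriptome of matrix-embedded cells, and all comparisons with LD share the LD library.

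HD stood apart from the other libraries. It held 926376 reads, against 5096134 to 7118545 in the others. The ribosomal entry RNA5-8S5 took 51.5% of them, against 76.9 to 79.6%, which left 449661 reads on other genes at HD and 1100967 to 1645539 elsewhere. Of 368 olfactory receptor genes, 226 had a read at HD and at most 32 in any other library. All 9 mesenchymal markers measured, VIM and CD44 among them, had reads in every library, with a summed level of 7107 to 9850 TPM at low density and 2839 TPM at HD. Blood cell markers (5 genes) summed to at most 1.30 TPM at low density and 212 TPM at HD, endothelial markers (4 genes) to at most 1.08 and 58.4 TPM, and epithelial markers (6 genes) to 2.3 to 28.5 and 60.2 TPM. EPCAM and ESRP1 were at 0 reads in all 4 low-density libraries, and KRT5 was at 0 in all 5. Their part in the HD results was not tested, and fewer expressing cells cannot be told apart from less RNA per cell. Below, a level in reads per 1000000 is the share of a library's reads outside RNA5-8S5, with a 95% exact interval that covers counting error only, and a TPM level has been rescaled so that each library sums to 1000000.

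Antioxidant response element cores, TGACNNNGC or TGAGNNNGC on either strand, were searched in RefSeq windows from 250 bases before to 50 bases after each gene start (GRCh38.p14, matched by symbol). Windows were given for 7 of the 10 members, 8 windows in all because the table holds a pair of start sites for TXNRD1, and PRDX1, HMOX1 and FTH1 were not matched. A core was found in 5 of the 8 windows, or 62.5%, and in 29.1% of all 35116 windows of this length. The windows of TXN, SRXN1 and FTL held none, which says only that these letters do not occur there. For the genes with a core, the TGACNNNGC core nearest to the start site is printed, since NRF2 is known to act through such elements. The NQO1 window held only a TGAGNNNGC core, a form found in 18.3% of all windows, which is printed instead. Whether NRF2 acts through any of these cores was not tested. Each sequence is read on the gene's strand with the 9 bases of the core in capitals, and in all 4 the core lies on the opposite strand. The core's first base is at position 27 from the start in PIR (chrX:15493289-15493317, minus strand), -34 in GCLM (chr1:93909446-93909474, minus strand), -8 in TXNRD1 (chr12:104215761-104215789, plus strand) and -119 in NQO1 (chr16:69726661-69726689, minus strand).
PIR: gccgcgaagcGCTGAGTCAcggtgaggct
GCLM: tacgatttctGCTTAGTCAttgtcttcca
TXNRD1: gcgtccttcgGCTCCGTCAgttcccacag
NQO1: tcctggagctGCAGCCTCAgcatcctccg

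In untreated LD cells the 10 members spanned 10.1 to 2826 TPM. FTL, the ferritin light chain, was the highest at 2826 TPM and ranked 21 of all genes, followed by FTH1, the heavy chain with ferroxidase activity, at 1953 TPM and PRDX1, a cytosolic peroxiredoxin that reduces hydrogen peroxide, at 1951 TPM. HMOX1, which opens haem to biliverdin, carbon monoxide and iron, stood at 1396 TPM. NQO1, the quinone reductase, stood at 225 TPM and TXN, cytosolic thioredoxin, at 204 TPM. TXNRD1, the selenoprotein that reduces thioredoxin, stood at 70.8 TPM. SRXN1, which repairs overoxidised peroxiredoxin, stood at 32.8 TPM, PIR, an iron-binding nuclear protein, at 30.3 TPM and GCLM, the modifier subunit of glutamate-cysteine ligase, at 10.1 TPM. The ferritin chains, PRDX1 and HMOX1 kept ranks between 21 and 103 in all 4 low-density libraries.

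**Figure D1:**
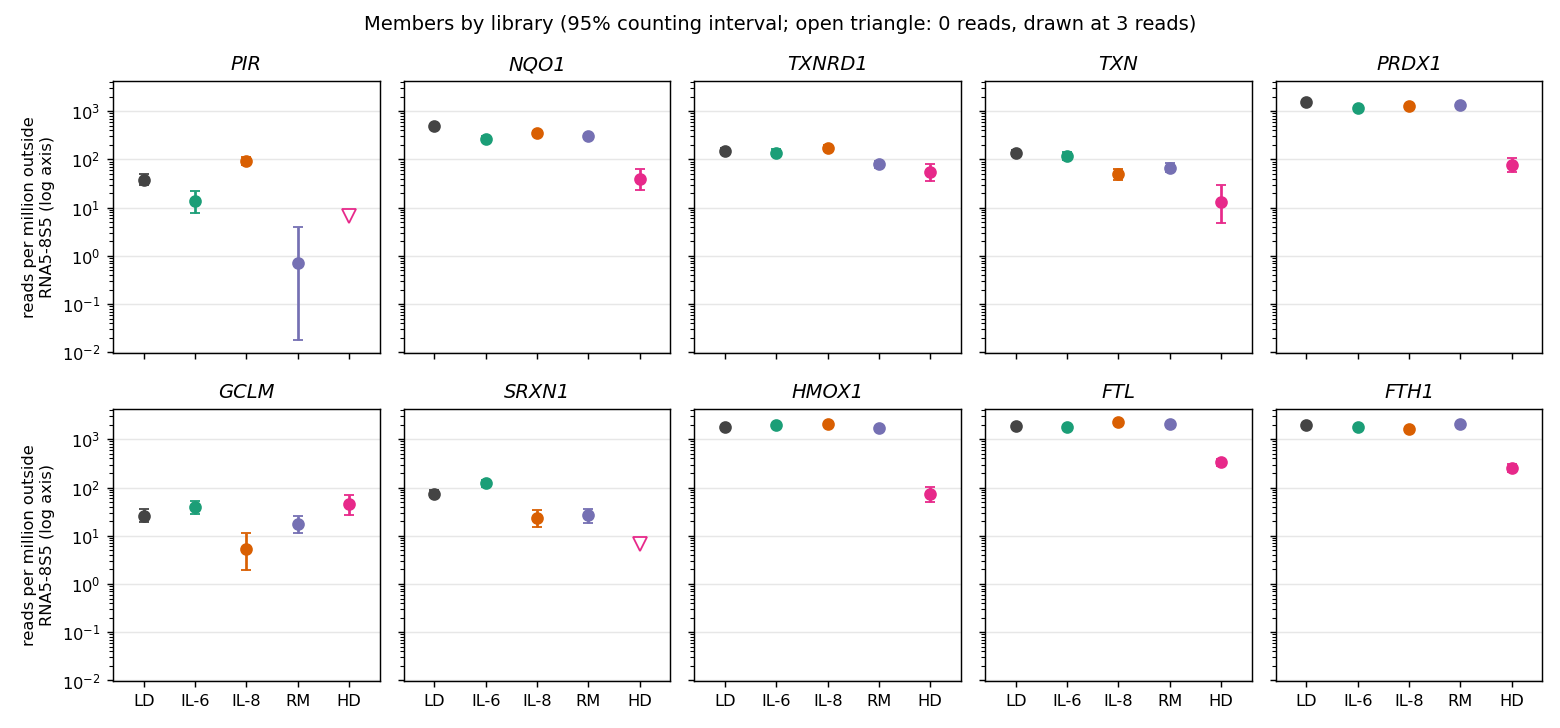
Reads per 1000000 outside RNA5-8S5 (shared log axis) for each member in the 5 libraries, 1 point per library, with bars for the 95% exact counting interval and open triangles for 0 reads drawn at 3 reads. PIR ranged from 93.7 with IL-8 to 0.697 with RM, while FTL and FTH1 stayed between 1613 and 2251 in the low-density libraries and lay at 336 and 251 at HD.

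PIR had the widest range of the members over the low-density libraries. It had 63 reads in LD, 15 with IL-6, 105 with IL-8, 1 with RM and 0 at HD. In reads per 1000000 this was 38.3 in LD (29.4 to 49.0), 13.6 with IL-6 (7.63 to 22.5), 93.7 with IL-8 (76.6 to 113), and 0.697 with RM (0.0177 to 3.88). IL-8 was thus the highest library, LD and IL-6 lay between, RM was near 0, and the 4 intervals did not overlap. The 0 reads of HD allow 6.67 reads per 1000000 at the floor of 3 reads, and 8.20 at the exact upper limit, both above the RM value, so RM and HD could not be ordered.

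Against LD, the PIR read share was 2.45-fold higher with IL-8 (95% interval of the ratio 1.77 to 3.40), 0.356 of LD with IL-6 (0.188 to 0.632) and 0.0182 of LD with RM (0.000454 to 0.105). On the log2(TPM + 1) scale the difference was 1.15 with IL-8, -1.43 with IL-6 and -4.38 with RM, the last being among the values for which PIR was noticed. The RM value is on 1 read, and under the other scalings it ran from -4.53 to -2.85. At HD the PIR read share was at least 5.74-fold lower than in LD when its 0 reads are set at the floor of 3 reads, and at least 4.53-fold lower by the exact interval of the ratio, which reaches 0.221. IL-8 alone and both cytokines together thus gave PIR values on opposite sides of LD. The read share with RM was 0.00744 of that with IL-8 (0.000187 to 0.0424) and 0.0512 of that with IL-6 (0.00122 to 0.333).

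NQO1 had a narrower range at low density than PIR. It had 490 reads per 1000000 in LD (457 to 525), 269 with IL-6 (239 to 301), 354 with IL-8 (320 to 391), 311 with RM (283 to 341) and 40.0 at HD (23.7 to 63.3). LD was the highest library beyond counting error, IL-8 and RM did not differ beyond it (ratio 1.14, 0.993 to 1.31), nor did RM and IL-6 (1.16, 0.996 to 1.34), and HD was far below. The size of these differences depended on the scaling: the log2 difference from LD was -0.80 with RM and -0.60 with IL-8 in TPM, and -0.05 and -0.12 with median-ratio scaling. PIR made up 7.25% of the reads on this pair of genes in LD (5.62 to 9.18%), 4.82% with IL-6 (2.72 to 7.83%), 20.9% with IL-8 (17.4 to 24.7%) and 0.224% with RM (0.00566 to 1.24%). This share is set within a library and does not depend on how libraries are scaled.

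The genes whose profile over the 5 libraries was closest to PIR, out of 8500 candidates reaching 10 TPM in some library and 50 reads in all, were HSPB8, DLX1 and TAGLN3, and none is among the members or the related lists. Their root mean square difference from PIR on centred log2(TPM + 1) values was 0.68, 0.76 and 0.78. HSPB8, a small heat shock protein, had 56, 18, 64, 5 and 0 reads in the order of the libraries from LD to HD. The closest member, HMOX1, ranked 661 with 1.75, and GCLM was the farthest at rank 6498 with 3.24. These distances rest on 5 libraries and on few reads in the RM and HD libraries.

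The thioredoxin system was not moved as a block. TXN had 138 reads per 1000000 in LD (121 to 157), 118 with IL-6 (98.7 to 140), 49.1 with IL-8 (37.0 to 63.9), 67.6 with RM (54.8 to 82.5) and 13.3 at HD (4.90 to 29.04). It was thus high in LD and IL-6, which did not differ beyond counting error, and lower with IL-8 and RM, which also did not. The log2(TPM + 1) difference from LD was -1.60 with IL-8 and -1.16 with RM. The RM value passed 1 log2 unit in 3 of 5 other scalings and the IL-8 value in 4.

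TXNRD1 had 151 reads per 1000000 in LD (133 to 171), 139 with IL-6 (118 to 163), 177 with IL-8 (153 to 203), 78.8 with RM (64.9 to 94.7) and 55.6 at HD (36.0 to 82.1). LD, IL-6 and IL-8 overlapped, and RM and HD were lower. Its TPM with IL-8 was 118 against 70.8 in LD, a log2(TPM + 1) difference of 0.72 where the read share ratio was 1.17 (0.968 to 1.42). Reads per TPM, set against those of FTL in the same library, were 3.14 in LD and 2.03 with IL-8 for TXNRD1. For NQO1 they were 3.21 and 3.22. A TXNRD1 read thus carried more TPM with IL-8 than in LD, and an NQO1 read did not. With IL-6, with RM and at HD the TXNRD1 value was 2.87, 2.63 and 2.58, also below that of LD. TXN made up 47.8% of the reads on TXN and TXNRD1 in LD (43.2 to 52.4%), 45.9% with IL-6 (40.0 to 51.9%) and 46.2% with RM (39.3 to 53.2%), but 21.7% with IL-8 (16.8 to 27.3%) and 19.4% at HD (7.45 to 37.5%, on 31 reads). The ratio was thus alike in LD, IL-6 and RM within counting error, and lower with IL-8.

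PRDX1 had 1575 reads per 1000000 in LD (1515 to 1636), 1177 with IL-6 (1114 to 1243), 1267 with IL-8 (1202 to 1335), 1338 with RM (1279 to 1399) and 77.8 at HD (54.2 to 108). It was highest in LD, with the 3 cytokine libraries close together at log2(TPM + 1) differences of -0.45, -0.44 and -0.38, though 1 of 5 other scalings put IL-8 above LD and 2 put RM above it. SRXN1, which acts on oxidised peroxiredoxins, ran wider, at 74.7 in LD (62.1 to 89.2), 124 with IL-6 (104 to 146), 23.2 with IL-8 (15.2 to 34.0), 26.5 with RM (18.7 to 36.4) and 0 of 449661 reads at HD. It was highest with IL-6, at 1.65 times LD (1.29 to 2.13), and low in both libraries that had received IL-8, at 0.310 of LD with IL-8 (0.195 to 0.477) and 0.354 with RM (0.240 to 0.514). At HD it was at least 11.2-fold lower than in LD with its 0 reads set at 3 reads, and at least 8.98-fold lower by the exact interval of the ratio.

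GCLM, which lowers feedback inhibition of glutathione synthesis, was the least abundant member in LD. It had 43 reads in LD, 43 with IL-6, 6 with IL-8, 25 with RM and 20 at HD. IL-8 was the lowest, at 5.35 reads per 1000000 (1.96 to 11.7) against 26.1 in LD (18.9 to 35.2), a ratio of 0.205 (0.0713 to 0.483). HD, IL-6, LD and RM followed each other at 44.5, 39.1, 26.1 and 17.4, and no neighbours in that order differed beyond counting error. Libraries further apart did. RM was at 0.446 of IL-6 (0.261 to 0.747), and the HD interval (27.2 to 68.7) lay above that of RM (11.3 to 25.7). GCLM was the 1 member whose TPM was higher at HD, with a log2(TPM + 1) difference of 1.36, but the read share ratio was 1.70 with an interval that holds 1 (0.949 to 2.96) and 57.6% of all genes tested lay as high.

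HMOX1 had 1824 reads per 1000000 in LD (1759 to 1890), 1959 with IL-6 (1877 to 2044), 2052 with IL-8 (1969 to 2137) and 1678 with RM (1612 to 1746), but 73.4 at HD (50.5 to 103). The cytokine libraries lay within 0.27 log2 units of LD in TPM, and the sign turned in 1 of 5 other scalings for IL-8 and in 3 for RM. With median-ratio scaling the difference was 0.51 with IL-8 and 0.48 with RM. At HD the read share was 0.0402 of LD (0.0276 to 0.0566) on 33 reads, the lowest ratio of the 8 members with a read there.

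FTL had 1916 reads per 1000000 in LD (1850 to 1984), 1823 with IL-6 (1744 to 1904), 2251 with IL-8 (2164 to 2340), 2094 with RM (2019 to 2170) and 336 at HD (284 to 394). FTH1 had 1933 in LD (1867 to 2001), 1815 with IL-6 (1736 to 1896), 1613 with IL-8 (1540 to 1689), 2080 with RM (2006 to 2156) and 251 at HD (207 to 302). All low-density values lay within 0.39 log2 units of LD in TPM, and the sign of the RM difference turned in 4 of 5 other scalings for both chains and that of FTH1 with IL-8 turned in 1. With median-ratio scaling FTL and FTH1 stood at 0.73 and 0.71 above LD with RM, and FTL at 0.57 above it with IL-8. The chains parted with IL-8, where FTL was the highest and FTH1 the lowest of the 4 low-density libraries. FTL made up 49.8% of the reads on both chains in LD (48.5 to 51.0%), 50.1% with IL-6 (48.6 to 51.7%), 50.2% with RM (48.9 to 51.4%) and 58.2% with IL-8 (56.8 to 59.7%). HD was at 57.2% (51.0 to 63.2%) on 264 reads. Per length, the ratio of FTL to FTH1 in TPM was 1.45 in LD, 1.46 with IL-6, 1.47 with RM, 2.04 with IL-8 and 1.95 at HD.

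**Figure D2:**
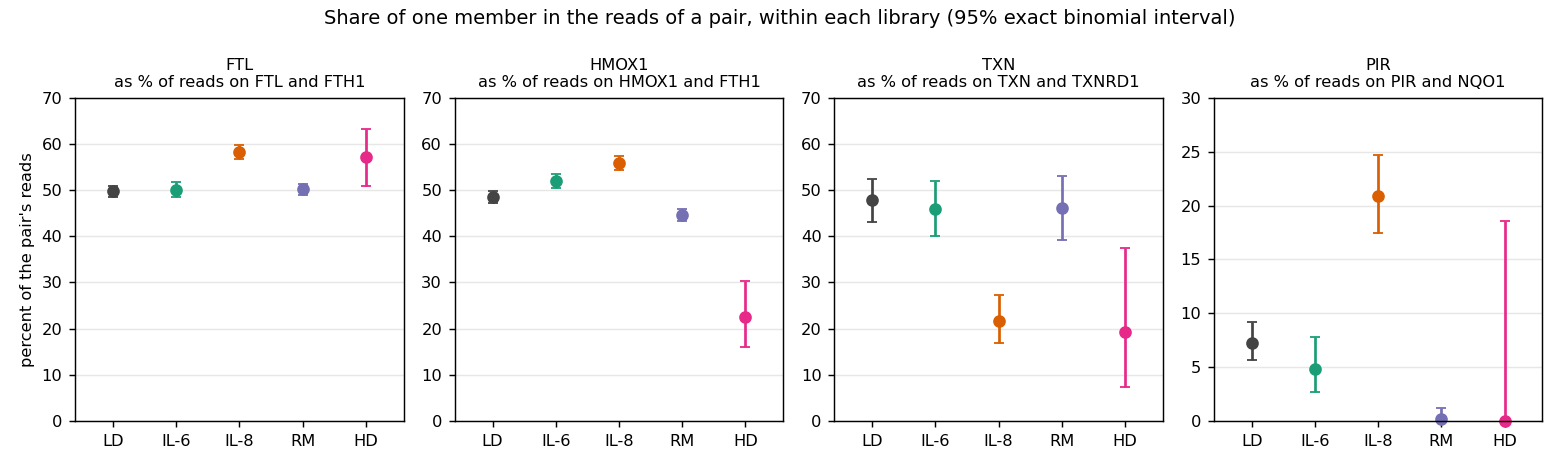
Percent of the reads on a pair of genes that fell on the first, in each library, with 95% exact binomial intervals; the axis of PIR and NQO1 ends at 30%, the others at 70%. FTL took 49.8% of the ferritin reads in LD and 58.2% with IL-8, TXN took 47.8 and 21.7% of its pair, and HMOX1 beside FTH1 ran from 56.0% with IL-8 to 22.6% at HD.

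The profile nearest to FTH1 among the 8500 candidates was that of ACTB, cytoplasmic actin, at a root mean square difference of 0.05 log2 units, followed by IGF2R with 0.06 and PSAP with 0.07. FTL ranked 122 with 0.22. Ferritin has many processed copies in the genome, 25 named for FTH1 and 16 for FTL in GENCODE 29, of which 2 and 1 are listed in the files, so part of the ferritin reads could have been placed on either. One of these, FTH1P3, singled out after its values were seen, had 117 reads with RM and 2 to 4 in LD, IL-6 and IL-8, against 1808 to 3181 on FTH1 in the low-density libraries. Whether counting used strand is not given in the sources used here, and genes on the opposite strand overlap some members. MMACHC, opposite PRDX1, had 3 to 91 reads, BEST1, opposite FTH1, had 0 to 23 and BMX, opposite PIR, had at most 1.

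**Figure D3:**
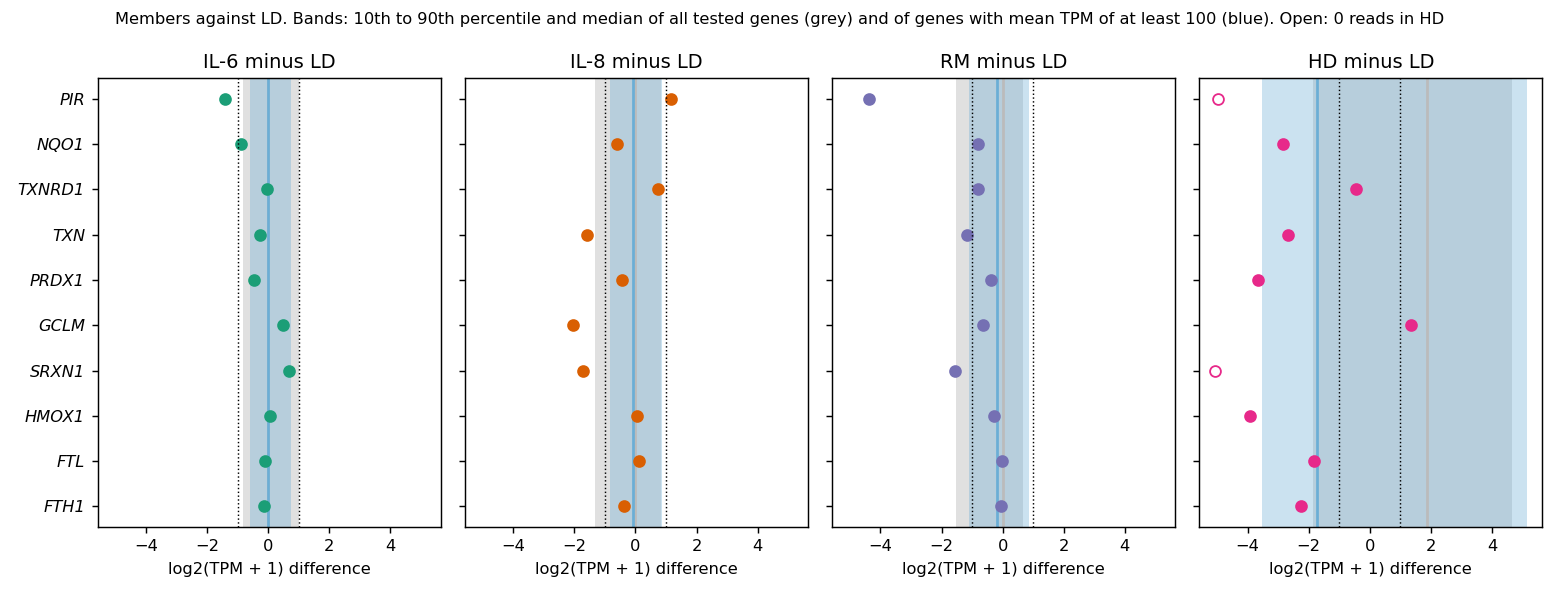
Difference from LD in log2(TPM + 1) for the 10 members in each other library; bands give the 10th to 90th percentile and the line the median of all 21163 tested genes (grey) and of the 1097 with a mean of at least 100 TPM (blue), dotted lines mark 1 log2 unit, and open circles have 0 reads. PIR sits at -4.38 with RM, and 8 of the 10 members lie at or below -1.83 at HD.

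With IL-6, 1 of 10 members, PIR, was lower by 1 log2 unit, near the 7.47% of all genes tested that were, and no member was higher where 9.84% of genes were. After PIR, the read shares farthest from LD among the members were those of NQO1 at 0.549 (0.479 to 0.628) and SRXN1 at 1.65. The member median was -0.12, against 0.00 over all genes.

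In IL-8, TXN, SRXN1 and GCLM were lower (16.4% of all genes) and PIR was higher (7.99% of all genes). The member median was -0.42, against 0.00 over all 21163 genes, of which 9774 were below 0 and 5961 above. Among the 3597 genes with 10 or more reads in every library, the median was -0.28. The 6 members in that set, without PIR, TXN, SRXN1 and GCLM, had -0.18. With median-ratio scaling the shares over all genes became 5.78% lower and 8.02% higher and the member median 0.06, with the same counts of 3 and 1 members.

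In RM, PIR, SRXN1 and TXN were lower, 3 of 10 members where 20.4% of all genes were lower, and no member was higher (6.44% of all genes). The member median was -0.72, against 0.00, and all 10 differences were below 0 in TPM. Those of PRDX1, GCLM, HMOX1, FTL and FTH1 turned sign in 1 to 4 of 5 other scalings, however. Of all 21163 genes tested, 10509 were also below 0 and 4965 above. Among the 3597 genes with 10 or more reads in every library, the median was -0.41 and 2457 were below 0. The 6 members in that set, without PIR, TXN, SRXN1 and GCLM, had a median of -0.33. With median-ratio scaling 6.82% of all genes were lower and 9.35% higher, the member median was -0.02, and 1 member, PIR, was lower. Among the 1097 genes with a mean of at least 100 TPM, 11.8% were lower with RM, and 1 of the 6 members in that set. The next lowest difference after PIR was -1.55 for SRXN1.

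RM was also set against each cytokine alone. Against IL-6, PIR, SRXN1 and GCLM were lower (22.7% of all genes) and no member was higher (6.34% of all genes), with differences of -2.95, -2.23 and -1.11. Against IL-8, PIR at -5.53 and TXNRD1 at -1.54 were lower (14.9% of all genes) and GCLM at 1.40 was higher (9.87% of all genes). SRXN1 with RM was thus close to IL-8 alone, with a read share ratio of 1.14 (0.675 to 1.96), and below IL-6 alone, with 0.214 (0.146 to 0.309). PIR was below each cytokine alone. The comparisons of RM with IL-6 and IL-8 were not put on the other scalings, so calls near 1 log2 unit may not hold there. GCLM against IL-6 rests on 25 and 43 reads, with a read share ratio of 0.446 (0.261 to 0.747). For TXNRD1 against IL-8 that ratio was 0.446 (0.351 to 0.565). Its reads per TPM over FTL were 2.63 with RM and 2.03 with IL-8, so TPM set them further apart than read shares.

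In HD, 8 of 10 members were lower, where 17.9% of all genes tested were lower, and 1, GCLM, was higher, where 61.9% of them were. In 4 of 5 other scalings TXNRD1 was lower too, at -1.91 to -1.17 against -0.46 in TPM, which made 9 members lower, and GCLM was not called. The member median was -2.76 against 1.86 over all genes, and -2.41 with PIR and SRXN1 set at 3 reads. Most members are abundant, and among the 1097 genes with a mean of at least 100 TPM 67.4% were lower at HD with a median of -1.73, against 6 of 6 members and -2.76. Together the members took 0.817% of non-RNA5-8S5 reads for LD, 0.748% with IL-6, 0.788% with IL-8, 0.769% with RM and 0.0892% at HD. The member sum was thus nearly even at low density and far lower at HD. In LD, FTL, FTH1, HMOX1 and PRDX1 had 3153, 3181, 3001 and 2591 of the 13436 member reads. The sum thus mostly follows these genes and shows little of PIR, SRXN1, GCLM or TXN. The HD library is also the one with 226 olfactory receptor genes read, blood cell markers at 212 TPM and mesenchymal markers at 2839 TPM, and their part in the member values was not tested. In the read shares of HD, GCLM was at 1.70 of LD with an interval that holds 1 (0.949 to 2.96). Of the other members, TXNRD1 at 0.369 of LD (0.234 to 0.558) and FTL at 0.175 (0.148 to 0.206) were the least reduced. PRDX1 at 0.0494 (0.0344 to 0.0689) and HMOX1 were the most reduced of those with a read.

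Genes upstream of the members were measured as well, and the counts of this and the next lists are at 1 log2 unit. Genes of these lists are given in TPM or read share and were not put on the other scalings. For the members, median-ratio scaling took NQO1 from -0.80 to -0.05 with RM and from -0.60 to -0.12 with IL-8. A list gene below LD with RM or IL-8 may thus lie nearer to LD, or above it, on another scaling. The shares of all genes tested were 7.47% lower and 9.84% higher with IL-6, 16.4% and 7.99% with IL-8, 20.4% and 6.44% with RM, and 17.9% and 61.9% at HD. The median of all genes was 1.86 at HD and 0.00 in the other comparisons. Among the 3597 genes with 10 or more reads in every library it was 0.00 with IL-6, -0.28 with IL-8, -0.41 with RM and 0.11 at HD. Of 11 NRF2 regulators, 0 were lower and 1 higher with IL-6, 1 lower and 0 higher with IL-8, 3 lower and 1 higher with RM, and 5 lower and 4 higher at HD. The list medians were 0.18, -0.27, -0.09 and -0.06, and -0.73 at HD when genes at or under 3 reads in both libraries were left out. NFE2L2 itself stood at 29.7 TPM in LD, 41.9 with IL-6, 14.1 with IL-8, 15.1 with RM and 74.1 at HD. Its read share was 1.47 of LD with IL-6 (1.11 to 1.93), 0.539 with IL-8 (0.365 to 0.781) and 0.547 with RM (0.386 to 0.768). Both libraries that had received IL-8 were thus low in TPM and read share, and the other scalings were not applied to NFE2L2. In HD the read share was 0.671 (0.395 to 1.09), on the other side of LD from the TPM. KEAP1 stood at 76.5 TPM in LD, 86.8 with IL-6, 77.3 with IL-8, 50.0 with RM and 19.9 at HD, with a read share of 0.669 of LD with RM (0.542 to 0.823). BACH1, a repressor that competes for the same elements, had 30, 27, 27, 45 and 11 reads in that same order, and its read share with RM was 1.72 of LD (1.06 to 2.83). SQSTM1, an autophagy receptor that binds KEAP1, was the most abundant of the list at 1355 TPM in LD and 1090.5 to 1269.6 TPM in the cytokine libraries, and at 88.4 TPM at HD. RBX1, the ring subunit of the KEAP1 ligase, had a read share of 0.402 of LD with RM (0.283 to 0.562).

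Of 29 other NRF2 targets in the files, 2 were lower and 2 higher with IL-6, 10 lower and 1 higher with IL-8, 6 lower and 3 higher with RM and 11 lower and 11 higher at HD. Their medians were 0.00, -0.62, -0.15 and 0.54, and with genes at 0 reads set to 3 reads and those at or under 3 reads in both libraries left out -0.05, -0.62, -0.29 and 0.47. The HD median was thus below the 1.86 of all genes tested, of which 61.9% were higher. That relation depended on the filter: among genes with 10 or more reads in all 5 libraries, this list had 0.56 (10 genes) and all 3597 genes 0.11. SLC7A11, the cystine transporter that feeds glutathione synthesis, had 113 reads in LD, 35 with IL-6, 19 with IL-8, 59 with RM and 43 at HD, with a read share of 0.247 of LD with IL-8 (0.143 to 0.404). GCLC, the catalytic partner of GCLM, had 2 to 10 reads a library, too few to compare. Of the enzymes TKT and TALDO1, which act in the non-oxidative branch of the pentose phosphate pathway, TKT had a read share of 1.27 of LD with IL-8 (1.19 to 1.36) and 1.00 with RM (0.939 to 1.07), and TALDO1 1.46 with IL-8 (1.23 to 1.73) and 1.64 with RM (1.40 to 1.92).

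Of 16 iron handling genes, 2 were lower and 0 higher with IL-6, 5 and 0 with IL-8, 6 and 0 with RM, and 8 and 4 at HD. The list medians were -0.15, -0.83, -0.85 and -0.70, and with genes at 0 reads set to 3 reads -0.15, -0.78, -0.79 and -1.03. All genes had a median of 0.00 with each cytokine and 1.86 at HD, with 16.4% lower with IL-8 and 20.4% lower with RM. TFRC, the transferrin receptor that brings iron in, had 130 reads in LD, 60 with IL-6, 77 with IL-8, 50 with RM and 5 at HD, with a read share of 0.441 of LD with RM (0.312 to 0.616) beside ferritin ratios of 1.09 for FTL (1.04 to 1.15) and 1.08 for FTH1 (1.02 to 1.13). SLC40A1, the iron exporter, had 5 reads in LD, 1 at HD and 0 in the others, too few to compare. PCBP1, an iron chaperone for ferritin that also binds RNA, was lower in all 3 cytokine libraries, with read shares of 0.399 (0.335 to 0.473) with IL-6, 0.492 (0.420 to 0.574) with IL-8 and 0.471 (0.407 to 0.544) with RM. PCBP2 was at 0.971 (0.863 to 1.09), 0.581 (0.505 to 0.667) and 0.637 (0.562 to 0.720). These ratios too were not put on the other scalings. ISCU, the scaffold for iron-sulphur clusters, was at 0.426 of LD with IL-8 (0.303 to 0.588).

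Among 13 other peroxiredoxin, thioredoxin and antioxidant genes, none was lower or higher with IL-6, 2 were lower and 1 higher with IL-8, 2 lower and 0 higher with RM, and 8 lower and 1 higher at HD. The list medians were 0.02, -0.44, -0.19 and -1.60, the last being -1.48 with the gene at 0 reads set to 3 reads. The counts with IL-8 and RM were near the shares of all genes, 16.4% and 20.4% lower. At HD 17.9% of all genes were lower, but 67.4% of those with a mean of at least 100 TPM, a set that holds 7 of the 13, of which 5 were lower. TXN2, the mitochondrial thioredoxin, had 588 TPM in LD, 589 with IL-6, 1480 with IL-8, 919 with RM and 169 at HD. Its read share with IL-8 was 2.68 of LD (2.49 to 2.90), where cytosolic TXN was at 0.356 (0.260 to 0.480). PRDX5 was at 1.46 of LD with IL-8 (1.29 to 1.65) and GPX1, a glutathione peroxidase, at 1.18 (1.03 to 1.36). The cytosolic and mitochondrial thioredoxins thus lay on opposite sides of LD with IL-8.

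**Figure D4:**
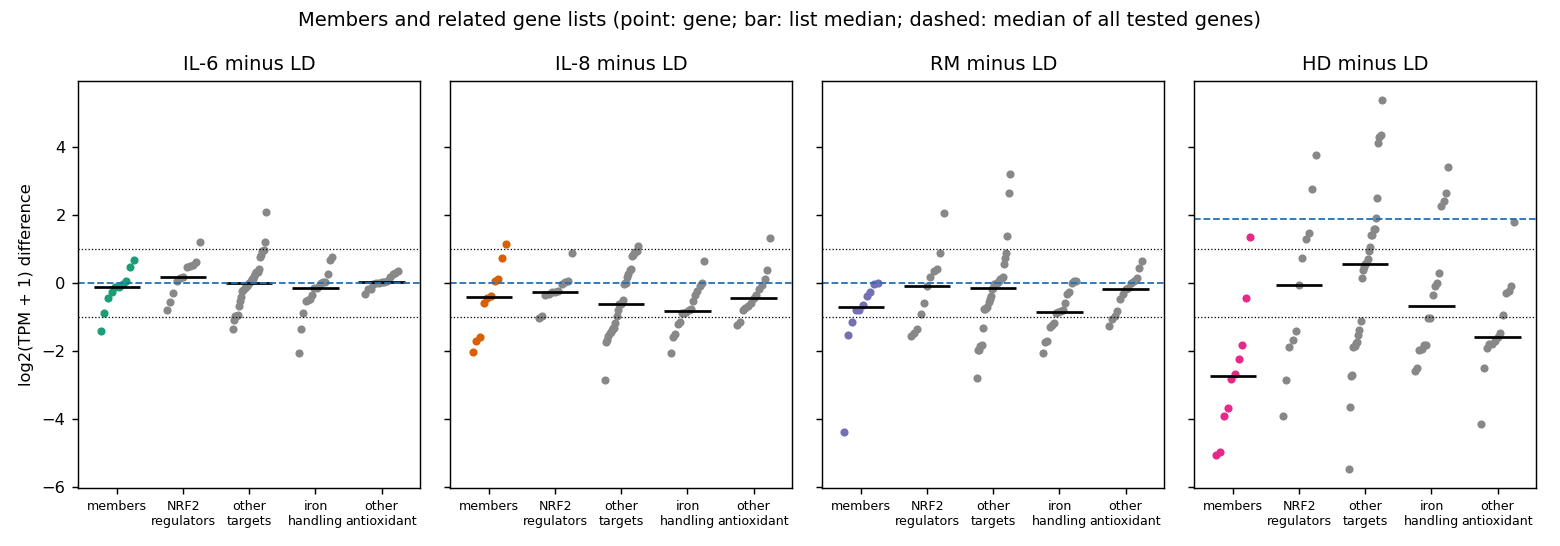
Difference from LD in log2(TPM + 1) for the members (coloured) and 4 related lists (grey), 1 point per gene, with a bar at each list's median, a dashed line at the median of all tested genes and dotted lines at 1 log2 unit. In RM the list medians lie between -0.85 and -0.09 and PIR at -4.38 is the lowest point, and at HD the member median of -2.76 is the lowest of the 5 sets.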

How the data were processed

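Expected counts and TPM per gene were used from 5 libraries, 1 per condition. Per the labels and the study's methods, the authors prepared poly(A)-primed, phi29-amplified cDNA as Nextera XT libraries and sequenced 50 bp single ends. The submitters' processing notes name Bowtie2 2.3.1, RSEM 1.2.25, CASAVA 1.4, FastQC and the builds GRCh37 and hg19, and the annotation is not given in the sources used here. The estimated counts were deposited by the authors as whole numbers from RSEM, and the deposited TPM values come from the same step. Neither holds molecular identifiers, so amplification can inflate counts and intervals and floors cover counting error only.

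TPM was rescaled to 1000000 per library. Differences are of log2(TPM + 1), where the added 1 shrinks differences of low genes, over the 21163 genes reaching 1 TPM, and called at 1 log2 unit. Read shares excluded RNA5-8S5, with Clopper-Pearson 95% intervals, exact conditional intervals for ratios and a floor of 3 reads per library. With 1 library a condition no test between conditions was run. The 10 members and all lists were chosen with earlier results of these data known. Related genes were named by rule: NFE2L2, KEAP1, BACH1, SLC7A11, GCLC, TFRC, SLC40A1 and the 3 of each list with the highest mean TPM, 1 of which is not reported here. The alternatives were other pseudocounts, filters, thresholds and scalings, the last with TMM from edgeR 4.0.16 in R 4.3.3 for scaling alone. The rest used Python 3.11.15, pandas 2.3.3, numpy 2.4.6 and scipy 1.17.1. Scripts were tested on simulated data. A cell-free collagen sample was not analysed here, nor were AKR1C3, SOD2, CAV1 and CLDN4.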

Additional observations from a re-analysis of the deposited data

How the results depend on the processing

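At 2 log2 units, the members lower numbered 0 with IL-6, 1 for IL-8 and 1 for RM, and 0 were higher with IL-8 or at HD. A minimum of 10 reads in each of the 5 libraries drops PIR, TXN, SRXN1 and GCLM, which are all the members called with a cytokine, and so fixes the cytokine counts: 0 of the 6 kept were lower with IL-6, IL-8 or RM, 5 were lower at HD and 0 were higher with IL-8 or at HD. Among genes with a mean of at least 100 TPM, also 6 members without PIR, 0 were lower with IL-6, 1 for IL-8 and 1 for RM, and 0 were higher with IL-8 or at HD. Median-ratio and TMM scaling each left 1 member lower with RM and 0 higher at HD. CPM without RNA5-8S5 and reads thinned to 449661 a library gave 0 higher at HD, and all 4 of these scalings gave 9 members lower there, TXNRD1 being the one gained. Of the counts of members, 74 values under the alternatives stayed near the reported one and 22 moved. Dropping the filter, or asking for 10 TPM in 1 library, keeps all 10 members and so could not move a count. The member median moved in 9 of 48 cases, from -0.42 to 0.06 with IL-8 and from -0.72 to -0.02 with RM under median-ratio scaling, and from -2.76 to -3.48 at HD under TMM. The threshold of 2 log2 units, no filter and the 10 TPM filter cannot change the median, so those cases were fixed in advance. No called direction reversed. PIR kept its sign and passed 1 log2 unit against LD in all 5 other scalings with IL-6 and with IL-8. It did so with RM and at HD too, but PIR had been noticed for those values. With 1 read in RM and 0 at HD against 63 in LD, scaling had little room to change them, so they are no check. No paired analysis was possible because each group holds 1 library, and no library could be left out for the same reason. Depth limits HD most: a count of 0 there allows 6.67 reads per 1000000 outside RNA5-8S5, against 1.82 in LD.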
